A study of Mus musculus with 6 samples.

Results

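The genes described here encode the ubiquitin-conjugating E2 enzymes, the cullins and the deubiquitinases of the USP, OTU and UCH families. They were taken from the deposited table by symbol alone (*Ube2*, *Cul1*, *Cul2*, *Cul4*, *Cul5*, *Cul7*, *Cul9*, *Usp* followed by a digit, *Otub*, *Otud* and *Uchl* genes, without *Usp9y* and pseudogenes). The symbol rule uses no measured value, though it was set with earlier results of these data known. Of the 12125 genes listed, 91 were members, namely 32 E2 enzymes, 7 cullins, 43 USP, 7 OTU and 2 UCH deubiquitinases. The symbol rule takes in *Usp6nl*, which is named after a USP and encodes no deubiquitinase, and leaves out *Cul3*, which is given below among the other genes of the pathway. Classes also follow the symbol, so *Ube2cbp* is counted with the E2 enzymes though it is named as a binding protein of an E2.

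Ubiquitin is passed from an E1 enzyme to an E2 enzyme and from there, with the help of an E3 ligase, to a target protein. E2 enzymes largely set which kind of ubiquitin chain is built. Cullins are the scaffolds of the largest class of E3 ligases and work only after the ubiquitin-like protein NEDD8 has been attached to them, while deubiquitinases cut ubiquitin off again. Ubiquitination steers protein turnover, DNA repair and Tgf-β signaling, processes that are studied in fibrotic kidneys and at damaged telomeres.

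RNA was measured in cells labelled as kidney fibroblasts from 3 mice of the genotype *Trf1*+/+; *Col1a2*-CreERT2 and 3 mice of the genotype *Trf1*flox/flox; *Col1a2*-CreERT2. Both genotypes carried the tamoxifen-inducible Cre under the *Col1a2* promoter and a lox-STOP-lox reporter of the Katushka fluorescent protein (KFP). Both received tamoxifen 3 times a week for 8 weeks, starting at an age of 6 to 8 weeks. The floxed *Trf1* alleles were the only difference between the groups that the labels give. Male and female mice were used, and the labels give neither the sex nor a litter or batch for a library. Each library came from 500 cells sorted by CD29 and KFP. The libraries are numbered 1 to 3 within each genotype, and the numbers pair no mice.

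The values are normalized counts, that is, reads of a gene divided by a size factor of the library. The listed genes held 10263382 to 12248797 reads per library, and a read was worth 0.689 to 1.09 normalized counts. Up to 3 reads in a library count as being at the floor, a limit that covers counting error only because the reads were amplified by PCR and carry no molecular identifiers. In the check of the targeted gene, *Terf1*, which encodes TRF1, was at 0.891, 253 and 235 normalized counts where the label was *Trf1*+/+ and at 110.0, 7.65 and 12.4 where it was *Trf1*flox/flox, so the library labelled *Trf1*+/+ replicate 1 went against its label. The value in *Trf1*flox/flox replicate 1 was well above those in replicates 2 and 3 of that genotype. Of 15 fibroblast markers 2 were listed, with *Col1a2* at the floor in all 6 libraries and *Dcn* between 0 and 97.3. All 12 markers of the proximal tubule were listed, and their summed level was 22191 to 94029 in *Trf1*+/+ and 23192 to 122387 in *Trf1*flox/flox libraries. The summed level of the 7 markers of the loop and distal tubule was 79583 to 127807 and 59006 to 148569. That of the 6 collecting duct markers was 475 to 6630 and 1361 to 18848, and that of the 5 erythroid markers 238 to 10472 and 121 to 52403. Of 7 lymphocyte markers 1 was listed, *Trac*, at 0 in all *Trf1*+/+ libraries and 61.3 to 216 in *Trf1*flox/flox libraries. Of 6 pericyte markers 3 were listed, with a summed level of 0 to 79.8 in *Trf1*+/+ and 26.2 to 280 in *Trf1*flox/flox libraries. Of 7 macrophage markers 3 were listed, at 0 to 379 and 0 to 260. Of 7 endothelial markers 1 was listed, *Pecam1*, at 7.13 to 9.11 and 0.859 to 12.0, and none of 5 podocyte markers was. The fibroblast label is therefore not borne out by these markers. The part of this in the results was not tested, and in such pooled cells fewer cells of a type and less RNA per cell cannot be told apart.

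Many members were read from very few molecules in some libraries. Of the 91 members, 49 were above the floor in all 6 libraries and 21 were at 0 in at least 1 library. At the floor were 26 members in *Trf1*+/+ replicate 1, 9 in replicate 2 and 7 in replicate 3, and 7, 23 and 3 in *Trf1*flox/flox replicates 1, 2 and 3. In every library the share at the floor was smaller among members than among all listed genes, for example 28.6% against 43.8% in *Trf1*+/+ replicate 1. That library also held both extremes: of the 81 members tested, 28 (34.6%) had their highest and 25 (30.9%) their lowest value there. Over all tested genes these shares were 27.4% and 38.2%. Members took 0.287% to 0.456% of the reads of a library, with the largest share in *Trf1*+/+ replicate 1.

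**Figure D1:**
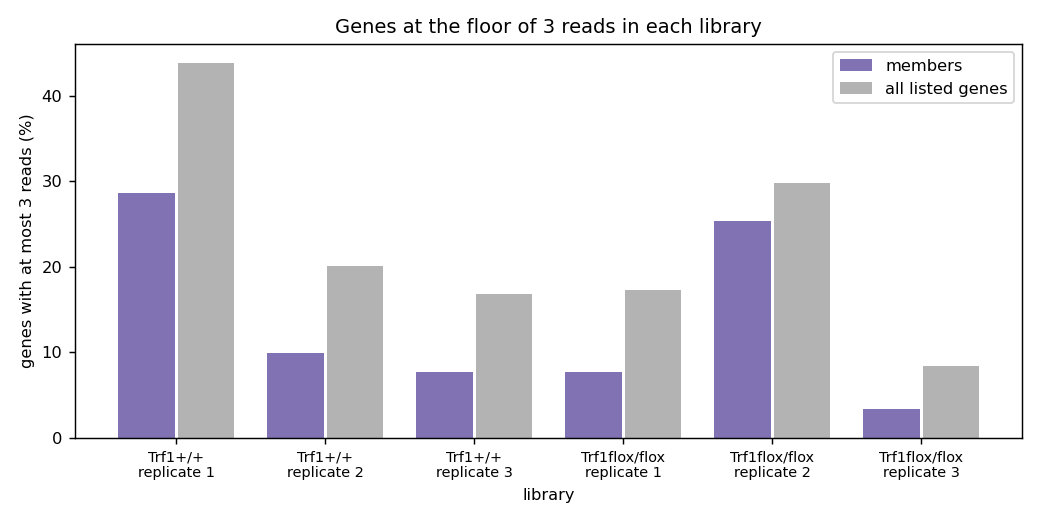
Bars give the percentage of genes with at most 3 reads (y axis) in each of the 6 libraries (x axis), in purple for the 91 members and in grey for all 12125 listed genes. The *Trf1*+/+ replicate 1 and *Trf1*flox/flox replicate 2 libraries stand apart from the other 4, with 28.6% and 25.3% of the members at the floor.

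The 3 members with groups that did not overlap and the smallest limma p-values in each direction, among those with a promoter entry, are shown first by the 120 bases before their start (RefSeq, GRCm38.p6, 5′ to 3′ on the strand of the gene). The windows of *Ube2z* and *Ube2d3* were moved upstream by 24 and 83 bases so that they end before the start of the gene in GENCODE. Capitals mark the E-box (CACGTG), the GC box (GGGCGG, or CCGCCC on the other strand) and the CCAAT box (CCAAT, or ATTGG on the other strand), and no marked motif overlapped another. *Usp4*, *Ube2z* and *Ube2d1* were higher and *Ube2g1*, *Ube2b* and *Ube2d3* lower in *Trf1*flox/flox libraries.
Usp4 (chr9:108347711-108347830, plus strand): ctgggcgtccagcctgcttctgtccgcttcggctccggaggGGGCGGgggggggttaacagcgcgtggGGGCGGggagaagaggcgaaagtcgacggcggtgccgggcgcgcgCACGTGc
Ube2z (chr11:96065389-96065508, minus strand): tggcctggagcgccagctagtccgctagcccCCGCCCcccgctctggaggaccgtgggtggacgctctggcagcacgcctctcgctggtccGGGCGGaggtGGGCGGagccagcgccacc
Ube2d1 (chr10:71285263-71285382, minus strand): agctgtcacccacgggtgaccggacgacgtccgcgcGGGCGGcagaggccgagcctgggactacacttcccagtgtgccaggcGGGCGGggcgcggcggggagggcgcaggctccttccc
Ube2g1 (chr11:72607141-72607260, plus strand): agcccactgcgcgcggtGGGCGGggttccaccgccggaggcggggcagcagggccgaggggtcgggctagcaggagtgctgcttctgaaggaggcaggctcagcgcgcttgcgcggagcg
Ube2b (chr11:52000787-52000906, minus strand): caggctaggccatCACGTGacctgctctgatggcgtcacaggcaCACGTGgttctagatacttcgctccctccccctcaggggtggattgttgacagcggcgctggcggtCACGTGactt
Ube2d3 (chr3:135438029-135438148, plus strand): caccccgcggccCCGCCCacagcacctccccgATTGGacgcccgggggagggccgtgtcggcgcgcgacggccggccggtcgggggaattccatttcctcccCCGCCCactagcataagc

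*Ube2b* held 3 E-boxes and no GC box in this window, and the other 5 held between 1 and 3 GC boxes. Promoter entries were matched for 71 of the 91 members. The counts that follow take the 120 bases before any RefSeq start of a gene, without the upstream shift, so they can differ from the windows shown. By this measure 47 of these (66.2%) held a GC box, against 54.7% of the 7705 tested genes with an entry. The members include untested ones such as *Ube2e2*, while each comparison takes these tested genes only. An E-box was present in 5 members (7.04%), against 6.74% of those genes. The CCAAT box was present in 6 members (8.45%), against 28.8%. These motifs were chosen with the values known, and a match is a description of letters only.

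Levels differed widely between members. Per kilobase of merged exons, the highest mean over the 6 libraries was that of *Ube2b* with 711 normalized counts per kb, followed by *Ube2n* (501), *Ube2a* (326), *Otub1* (322) and *Uchl5* (299). *Ube2b* and *Ube2a* encode the mammalian Rad6 enzymes, and *Ube2n* encodes Ubc13, which builds Lys63-linked chains. *Usp2* led the USP genes (205 per kb) and *Cul1* the cullins (177 per kb). Merged exons take in every annotated isoform of a gene, so this order depends on the annotation. *Ube2d3* had a mean of 3088 normalized counts against 1512 for *Ube2b*. Over its 24499 merged bases, against 2126 for *Ube2b*, this came to 126 per kb. The spread within a group was also wide. The median SD within the groups was 1.82 on the log2 scale over the tested members, and 2.17 over all tested genes.

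Of the 91 members, 81 reached 10 normalized counts in 3 libraries or more and were tested. The 10 others were *Ube2cbp*, *Ube2e2*, *Ube2o*, *Ube2t*, *Usp18*, *Usp31*, *Usp36*, *Usp42*, *Usp49* and *Usp54*. No member passed an adjusted p of 0.05 over the 9966 tested genes, and the smallest adjusted p of a member was 0.970 (limma). No gene passed in limma (0%) or in edgeR (0%), and 0.582% of the genes passed in DESeq2, none of them a member. At an unadjusted p under 0.05 there were 5 members in limma, where 3.13% of all tested genes passed, 3 in edgeR, where 1.97% passed, and 6 in DESeq2, where 4.11% passed. With 3 libraries against 3, an exact two-sided permutation test of a single gene cannot go below p = 0.1. The differences below are therefore values, not calls. Log2 fold changes, their order and the words higher and lower are those of limma on log2(normalized count + 1) unless another tool or a mean is named.

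In direction, 39 tested members were higher in *Trf1*flox/flox libraries and 42 lower, with a median log2 fold change of -0.09. Over all tested genes 55.9% were higher and the median was 0.20. The split moved with the scaling of the libraries: it was 50 higher and 33 lower after scaling to the same upper quartile, where the median over all genes was 0.44, and 33 higher and 48 lower in edgeR and in DESeq2, where that median was -0.04 and -0.05. Relative to the median of all tested genes, 38 members lay above and 43 below as deposited, 38 and 45 with upper quartile scaling, and 33 and 48 in edgeR. In 11 members (13.6%) the 3 values of 1 genotype all lay above those of the other, against 8.68% of all tested genes. Of these, 7 were higher, where 5.35% of all genes were, and 4 were lower, where 3.33% were. With upper quartile scaling *Ube2b*, *Usp2* and *Usp38* overlapped, and the other 8 did not. Such members were more numerous with a library left out, at 17, 20 and 21 without *Trf1*+/+ replicates 1, 2 and 3 and 17 without *Trf1*flox/flox replicate 3, where 17.9%, 19.3%, 25.5% and 18.2% of all genes did not overlap.

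**Figure D2:**
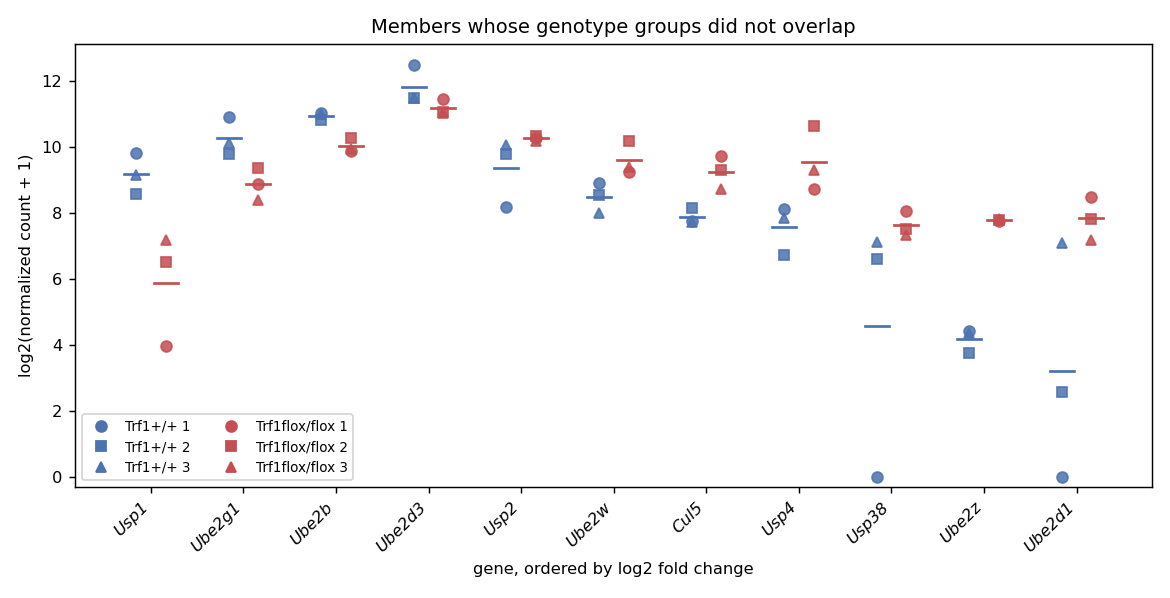
Points give log2(normalized count + 1) (y axis) in each library for the 11 tested members (x axis) whose genotype groups did not overlap, blue for *Trf1*+/+ and red for *Trf1*flox/flox, with the replicate shown by the symbol and the mean of each group by a line. *Usp1*, *Ube2g1*, *Ube2b* and *Ube2d3* were lower in *Trf1*flox/flox libraries and the other 7 higher, and the points of *Ube2z* and *Ube2b* lie closest together within a group.

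**Figure D3:**
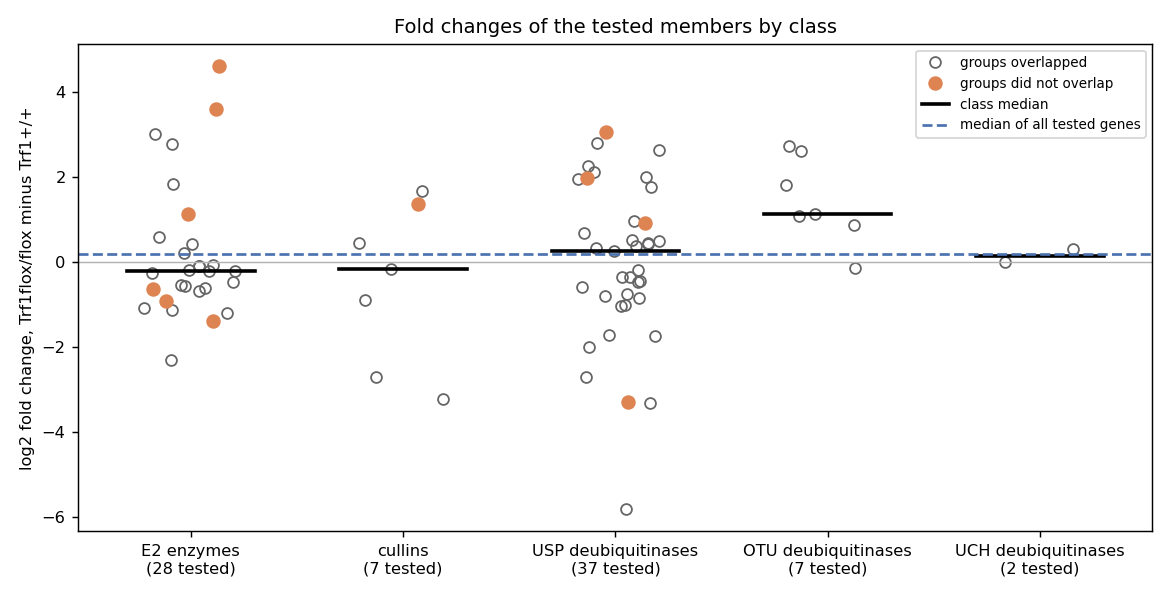
Each circle is the log2 fold change of a tested member (y axis, *Trf1*flox/flox minus *Trf1*+/+) by class (x axis), filled orange where the genotype groups did not overlap. Black lines mark class medians and the dashed line the median of all tested genes, 0.20. The E2 median lies at -0.20 and the OTU median at 1.14.

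Among the E2 enzymes, 9 of the 28 tested were higher and 19 lower, with a median log2 fold change of -0.20. This count turned with the scaling, to 17 higher and 12 lower of 29 under upper quartile scaling, while 9 lay above the median of all genes under either scaling. Without *Trf1*+/+ replicate 1, 12 of 27 were higher, and the E2 median was -0.05 beside -0.02 over all genes. With any other library left out, the E2 median minus that of all genes was -0.60 to -0.30. The groups did not overlap in 6 of the 28 (21.4%), 3 in each direction, against 8.68% of all tested genes (5.35% higher and 3.33% lower).

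*Ube2b* (ENSMUSG00000020390, chromosome 11, 51985497 to 52000762 in the GRCm38 build) gave 2074, 1797 and 2037 normalized counts in the *Trf1*+/+ group against 947, 1243 and 972 in the *Trf1*flox/flox group. Every *Trf1*flox/flox value was below every *Trf1*+/+ value, and its SD within groups, 0.17 on the log2 scale, was the smallest of the tested members. The means were 1969 ± 150.4 and 1054 ± 164 (SD, n = 3), a ratio of 1.87, and the log2 fold change was -0.91 (SE 0.48, adjusted p = 0.970 from limma). Without each library in turn it stayed between -1.03 and -0.84. Its paralog *Ube2a* had 1736, 181 and 783 in the *Trf1*+/+ group against 297, 928 and 516 in the *Trf1*flox/flox group, with groups that overlapped.

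*Ube2z* (ENSMUSG00000014349, chromosome 11, 96047432 to 96065388) encodes Use1, an E2 that is charged by the E1 enzyme UBA6 and passes on ubiquitin or the ubiquitin-like protein FAT10. It had 20.5, 12.4 and 19.7 normalized counts in the *Trf1*+/+ group against 216, 219 and 227 in the *Trf1*flox/flox group. The values were tight in both groups, with means of 17.5 ± 4.44 and 220.5 ± 6.11 (SD, n = 3), a 12.6-fold difference. The log2 fold change was 3.61 (SE 1.85, adjusted p = 0.970 from limma), and the adjusted p was 0.999 in edgeR and 0.187 in DESeq2. It was 3.39 to 3.73 without each library in turn. *Uba6*, its E1, had 0.891, 5.80 and 158 in the *Trf1*+/+ group against 120.3, 61.2 and 27.6 in the *Trf1*flox/flox group, and these groups overlapped.

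The *Ube2d* genes encode the UBCH5 enzymes, which serve very many E3 ligases. *Ube2d1* (ENSMUSG00000019927) had 0, 4.97 and 135 normalized counts in the *Trf1*+/+ group against 358, 226 and 145 in the *Trf1*flox/flox group, a log2 fold change of 4.62 (SE 2.38, adjusted p = 0.970 from limma). This was the highest limma log2 fold change among the tested E2 genes, and it rested in part on the value of 0 in *Trf1*+/+ replicate 1. It was 2.33 in edgeR and 2.38 in DESeq2, where that of *Ube2z* was higher (3.69 and 3.67). The *Trf1*+/+ replicate 3 and *Trf1*flox/flox replicate 3 values were close to each other. *Ube2d3* (ENSMUSG00000078578), which had the highest mean count of the E2 genes, moved the other way, with 5782, 2842 and 2866 in the *Trf1*+/+ group against 2827, 2136 and 2072 in the *Trf1*flox/flox group. Its groups were separated only by the narrow gap between 2842 and 2827. The log2 fold change was -0.64 (SE 0.46), and -0.30 without *Trf1*+/+ replicate 1. *Ube2d2a* had 1544, 1407 and 462 against 1366, 850.2 and 706, with groups that overlapped.

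Related to these are *Ube2e1*, *Ube2e2*, *Ube2e3* and *Ube2w*, an E2 that attaches ubiquitin to the amino terminus of its targets. *Ube2w* (ENSMUSG00000025939) had 482, 373 and 253 normalized counts in the *Trf1*+/+ group against 611, 1158 and 671 in the *Trf1*flox/flox group. All *Trf1*flox/flox values were above all *Trf1*+/+ values, with a log2 fold change of 1.13 (SE 0.69, adjusted p = 0.970 from limma). *Ube2e2* was not tested. It held 2 reads in the *Trf1*+/+ libraries together and had 175, 2.19 and 53.1 normalized counts in *Trf1*flox/flox libraries, a ratio of 134 with a counting interval of 36.8 to 1112 (95%, exact binomial), which covers counting error only. Without *Trf1*flox/flox replicate 1 the ratio was 55.8. *Ube2e1* and *Ube2e3* overlapped between the groups, with log2 fold changes of -0.58 and -0.20.

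Of the E2 enzymes that act at the endoplasmic reticulum in the disposal of misfolded proteins, *Ube2g1* (ENSMUSG00000020794, chromosome 11, 72607283 to 72686481) was measured at 1936, 881 and 1115 normalized counts in the *Trf1*+/+ group against 469, 654 and 339 in the *Trf1*flox/flox group. The groups did not overlap, with means of 1311 ± 554 and 487 ± 158 (SD, n = 3), and the log2 fold change was -1.40 (SE 0.62, adjusted p = 0.970 from limma). *Ube2g2* had 0.891, 362 and 144 against 527, 662 and 149.5, a log2 fold change of 3.02 that was 0.71 without *Trf1*+/+ replicate 1. *Ube2j1* and *Ube2j2* were at the floor in *Trf1*+/+ replicate 1 and in *Trf1*flox/flox replicate 2. Their other 4 values lay between 97.6 and 345 and between 199 and 956.

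**Figure D4:**
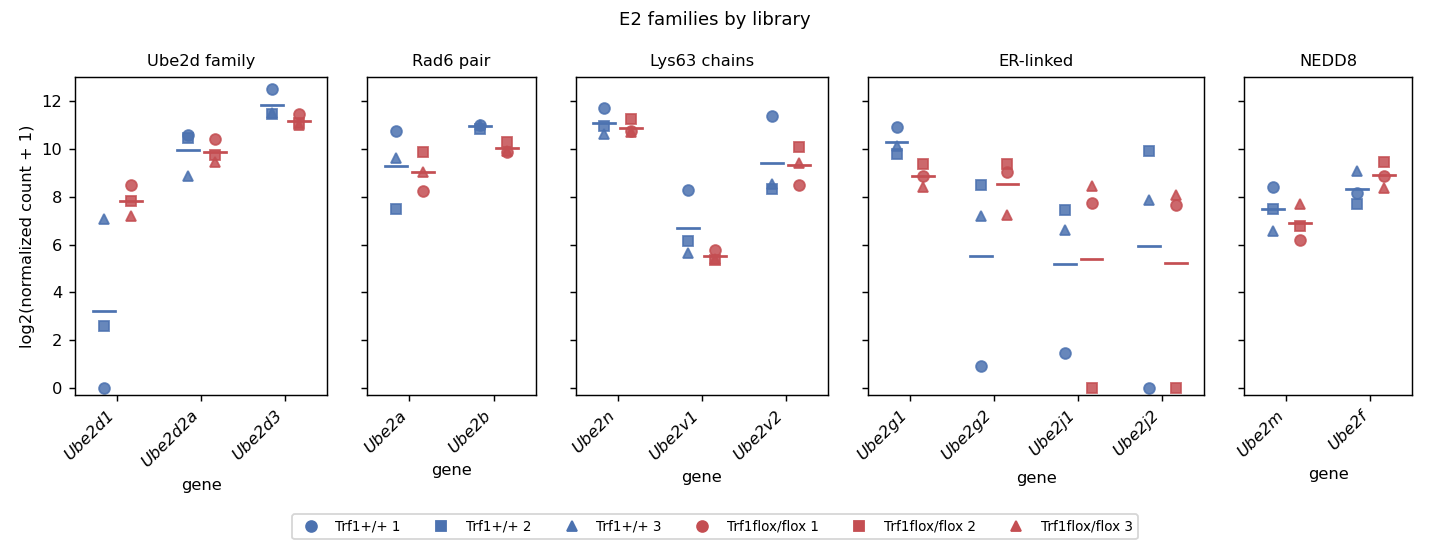
Points give log2(normalized count + 1) (y axis) in each library for 14 E2 genes (x axis) in 5 panels by family or role, blue for *Trf1*+/+ and red for *Trf1*flox/flox, with lines at the group means. *Ube2d1* was higher and *Ube2d3*, *Ube2b* and *Ube2g1* were lower in *Trf1*flox/flox libraries without overlap, while their paralogs *Ube2d2a*, *Ube2a* and *Ube2g2* overlapped between the groups.

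The E2 genes of DNA damage signaling are *Ube2a* and *Ube2b*, which with RAD18 attach ubiquitin to PCNA, and *Ube2n* with its partners *Ube2v1* and *Ube2v2*. The 5 tested were all lower in *Trf1*flox/flox libraries, with a median log2 fold change of -0.26. *Ube2n* had 3367, 1961 and 1579 normalized counts against 1721, 2408 and 1653, a log2 fold change of -0.20 (SE 0.48). Under upper quartile scaling 3 of the 5 were higher, though none lay above the median of all genes, and without *Trf1*+/+ replicate 1 there were 3 higher and 3 above that median. Without *Trf1*flox/flox replicate 1, 2 of the 5 were higher. The direction of this list thus depended on the scaling and on *Trf1*+/+ replicate 1, where *Ube2a*, *Ube2b*, *Ube2n*, *Ube2v1* and *Ube2v2* each had their highest value. Of the stretches of 50 bases in *Ube2v1* transcripts, 63.5% are also found in transcripts of other genes, mainly the read-through gene *Gm20431*, so its count is uncertain. *Ube2t*, the E2 of the Fanconi anemia pathway, was between 0.859 and 3.94 in all libraries and was not tested.

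For the ubiquitin-like proteins, *Ube2m* and *Ube2f*, the E2 enzymes of NEDD8, had log2 fold changes of -0.60 (SE 1.28) and 0.59 (SE 0.80). Both overlapped between the groups. *Ube2l6*, the E2 of the interferon-induced protein ISG15, was lowest in log2 fold change among the tested E2 genes, at -2.32 (SE 2.80), from 399, 104 and 2.96 in the *Trf1*+/+ group against 4.30, 0 and 252 in the *Trf1*flox/flox group. Each group held both high and floor values, and the log2 fold change was -0.71 in edgeR. *Usp18*, the protease that removes ISG15, is counted among the USP genes and was not tested. It had 961, 67.9 and 0.985 in *Trf1*+/+ libraries and no read in any of the 3 *Trf1*flox/flox libraries, which against a floor of 3 reads per library is at least 130.0-fold lower. This bound rests on *Trf1*+/+ replicate 1: without that library it is 13-fold, and *Trf1*+/+ replicate 3 was itself at the floor. *Isg15* itself was at 0 throughout the *Trf1*+/+ group, and its values of 0, 28.4 and 5.51 in the *Trf1*flox/flox group were not tested.

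The remaining E2 genes gave no groups without overlap among those tested. *Ube2s*, which extends Lys11-linked chains in mitosis, had 136, 61.3 and 1.97 normalized counts against 6.01, 10.9 and 27.6. *Ube2h*, *Ube2k*, *Ube2l3* and *Ube2r2* had log2 fold changes between -0.53 and -0.07. *Ube2q1*, *Ube2q2* and *Ube2u* were at the floor in *Trf1*+/+ replicate 1 and had log2 fold changes of 2.79, -1.08 and 1.85, which were 1.22, -3.33 and -0.34 without that library. The untested *Ube2o* held 1 read in the *Trf1*+/+ libraries together and was measured at 108, 0 and 18.6 in *Trf1*flox/flox replicates 1, 2 and 3, and *Ube2cbp* had 0, 0 and 42.4 against 12.9, 0 and 8.27.

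In *Trf1*flox/flox libraries 3 of the 7 cullins were higher and 4 lower, with a median log2 fold change of -0.16. The median was 0.37 without *Trf1*+/+ replicate 1, -0.99 without *Trf1*+/+ replicate 2 and 0.13 without replicate 3, and 0.33 and -0.78 without *Trf1*flox/flox replicates 1 and 2. *Cul5* (ENSMUSG00000032030, chromosome 9, 53614582 to 53670014), the scaffold of ligases with SOCS-box receptors, was the cullin of these 7 whose groups did not overlap. It had 214, 283 and 213 normalized counts in the *Trf1*+/+ group against 853, 626 and 427 in the *Trf1*flox/flox group. The means were 237 ± 40.5 and 636 ± 213 (SD, n = 3), a 2.69-fold difference. The log2 fold change was 1.38 (SE 0.77, adjusted p = 0.970 from limma) and stayed between 1.14 and 1.64 without each library in turn.

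*Cul1*, the scaffold of the SCF ligases, had the highest mean of the cullins with 892, 196 and 912 normalized counts in the *Trf1*+/+ group against 662, 1035 and 588 in the *Trf1*flox/flox group, and its log2 fold change of 0.44 (SE 0.75) was -0.29 without *Trf1*+/+ replicate 2. *Cul2*, the scaffold of the VHL ligase that turns over hypoxia-inducible factors, had 0.891, 179.8 and 405 against 82.5, 233 and 232. Its log2 fold change of 1.68 (SE 2.11), the highest among the cullins, was -0.71 without *Trf1*+/+ replicate 1. The lowest was that of *Cul7*, with 156, 68.8 and 87.7 in the *Trf1*+/+ group against 84.2, 2.19 and 3.45 in the *Trf1*flox/flox group and a log2 fold change of -3.22 (SE 2.33). *Cul9*, a close relative of *Cul7*, had 1159, 24.9 and 242 against 79.0, 3.28 and 73.7, a log2 fold change of -2.72 (SE 2.11). *Cul4a* and *Cul4b*, the scaffolds of the DDB1 ligases, ranged from 128 to 851 and from 7.46 to 1279. The groups overlapped in each of these 6 cullins.

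In the USP family 19 of 37 tested genes were higher and 18 lower, with a median log2 fold change of 0.25. The median was -0.25 in edgeR, -0.29 in DESeq2 and -0.32 without *Trf1*+/+ replicate 1, where 14 were higher and 22 lower. The groups did not overlap in 4 of the 37 (10.8%), against 8.68% of all tested genes. *Usp1* (ENSMUSG00000028560, chromosome 4, 98923810 to 98935543), which removes ubiquitin from PCNA and from the Fanconi anemia protein FANCD2, had the smallest limma p of the members. It had 909, 380.3 and 563 normalized counts in the *Trf1*+/+ group against 14.6, 90.7 and 143 in the *Trf1*flox/flox group. The highest *Trf1*flox/flox value was well below the lowest *Trf1*+/+ value, and the means were 617 ± 268 and 82.9 ± 64.7 (SD, n = 3), a ratio of 7.45. The log2 fold change was -3.30 (SE 1.23, adjusted p = 0.970 from limma, unadjusted p = 0.0202), and the adjusted p was 0.999 in edgeR and 0.318 in DESeq2. It was -3.94 to -2.33 without each library in turn. Of the stretches of 50 bases in its transcripts, 21.4% also occur in other genes, mostly in *Gm5841*.

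*Usp4* (ENSMUSG00000032612, chromosome 9, 108347853 to 108392545), which acts on a Tgf-β receptor among other targets, had 277, 106 and 230 normalized counts in the *Trf1*+/+ group against 425, 1582 and 626 in the *Trf1*flox/flox group. All *Trf1*flox/flox values were higher, with means of 204 ± 88.3 and 878 ± 618 (SD, n = 3). The log2 fold change was 1.98 (SE 0.85, adjusted p = 0.970 from limma), and 1.44 to 2.39 without each library in turn. *Usp2*, known for its circadian rhythm and for deubiquitinating a renal sodium channel, had the highest mean count of the USP genes. It had 292, 891 and 1066 against 1233, 1298 and 1151, and its log2 fold change of 0.91 (SE 0.64) was 0.33 without *Trf1*+/+ replicate 1. *Usp38* had 0, 96.9 and 138 against 269, 181 and 159.9, a log2 fold change of 3.06 (SE 2.23), the highest of the USP genes, that was 0.77 without that library. Of its transcript stretches of 50 bases, 20.0% are shared, mostly with *Gm9725*.

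*Usp39*, a splicing factor that resembles a deubiquitinase, was lowest in log2 fold change among the members, at -5.82 (SE 2.53, adjusted p = 0.970 from limma). It had 102, 433 and 422 normalized counts in the *Trf1*+/+ group against 0, 0 and 103 in the *Trf1*flox/flox group, and the highest *Trf1*flox/flox value lay just above the lowest *Trf1*+/+ value. DESeq2 gave no p for it. *Usp14*, a deubiquitinase of the proteasome, had 1217, 688 and 429 against 88.5, 142 and 433, a log2 fold change of -2.01 (SE 0.90, adjusted p = 0.970 from limma). *Trf1*flox/flox replicate 3 lay within the *Trf1*+/+ range. For *Usp14* 25.4% of the transcript stretches are shared, mostly with the neighbouring gene *Thoc1*. *Usp5*, which takes free ubiquitin chains apart, had a log2 fold change of 2.27 that was 0.05 without *Trf1*+/+ replicate 1, where it was at the floor.

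That library had the same part in several large USP genes. *Usp10*, *Usp15*, *Usp22*, *Usp24* and *Usp34* had 0.891 to 3.56 normalized counts in *Trf1*+/+ replicate 1 and 114 to 1129 in the other 5 libraries. Their log2 fold changes of 1.77 to 2.80 became -0.66 to 0.38 without it. A group difference in these 5 genes was thus not seen apart from *Trf1*+/+ replicate 1. Among the untested USP genes, *Usp42* had 0.891, 204 and 324 in *Trf1*+/+ and a single read in the *Trf1*flox/flox libraries together, a ratio of 608 with a counting interval of 109 to 24055, which covers counting error only. The ratio was 374 without *Trf1*+/+ replicate 3 and 914 without replicate 1. *Usp31*, *Usp36*, *Usp49* and *Usp54* had at most 2 libraries above 10 normalized counts.

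Among the other USP genes, each with groups that overlapped, *Usp33* (-3.33) and *Usp40* (-2.72) had the lowest log2 fold changes and *Usp6nl* (2.64) the highest, while *Usp48* and *Usp20* were at -1.74 and -1.72. *Usp33*, a deubiquitinase of receptor recycling, had 231, 285 and 127 normalized counts against 248, 1.09 and 15.2, so 2 of the *Trf1*flox/flox libraries were low and the remaining value lay within the *Trf1*+/+ range. *Usp8*, which acts on receptors at endosomes, had 302, 512 and 1119 against 1061, 42.6 and 453, a log2 fold change of -1.02 (SE 1.13). *Usp30*, a deubiquitinase of mitochondria that restrains mitophagy, had 0.891, 143 and 24.6 against 136, 6.56 and 48.9. *Usp21* and *Usp22*, which act on histone H2A and on histone H2B, had log2 fold changes of -0.44 (SE 2.50) and 1.77 (SE 1.87). *Usp12*, *Usp13*, *Usp19*, *Usp25*, *Usp29*, *Usp30*, *Usp32*, *Usp37*, *Usp45*, *Usp46*, *Usp50* and *Usp53* lay between -1.04 and 0.96, and *Usp13* and *Usp29* never exceeded 30.3 normalized counts.

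The OTU family had the highest median log2 fold change of the classes, 1.14, with 6 of 7 genes higher, and none of its genes had groups without overlap. This median was 0.65 in edgeR and 0.66 in DESeq2. Without *Trf1*+/+ replicate 2 it was 0.27, below the medians of the USP (0.33) and UCH (0.38) genes. *Otub1*, which besides cutting Lys48-linked chains blocks E2 enzymes such as UBC13, had the highest mean of the family. It had 892, 152 and 889.8 normalized counts in the *Trf1*+/+ group against 1146, 1340 and 493 in the *Trf1*flox/flox group, a log2 fold change of 0.88 (SE 0.81) that was 0.03 without *Trf1*+/+ replicate 2. *Otud5* had 8.02, 3.31 and 137 against 81.6, 460.1 and 40.0, the highest log2 fold change of the family at 2.73 (SE 2.32). *Otud7b* (Cezanne, which cuts Lys11-linked chains) had 2.67, 45.6 and 156 against 148, 666 and 61.3, and *Otud6b* had 535, 79.5 and 418 against 635, 500.5 and 546. *Otud4*, at 835, 2.49 and 349 against 226, 340 and 139, and *Otud3*, at 0, 0.829 and 165 against 193, 0 and 68.2, had log2 fold changes of 1.14 (SE 1.88) and 1.82 (SE 2.68). The sign of *Otud4* turned with the tool: it was -0.66 in edgeR, -0.72 in DESeq2 and -1.29 in limma without *Trf1*+/+ replicate 2, and its mean was 395 in the *Trf1*+/+ against 235 in the *Trf1*flox/flox group. *Otub2* had the lowest log2 fold change, -0.15 (SE 2.59), with 0, 27.3 and 142 against 49.0, 0 and 58.6, and it lay between -2.15 and 1.78 without each library in turn. Against the median of all genes, 6 of the 7 lay above it as deposited and under upper quartile scaling, and 5 in edgeR.

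Of the UCH family, *Uchl3* had 241, 835 and 740.0 normalized counts in the *Trf1*+/+ group against 491, 671 and 846 in the *Trf1*flox/flox group, a log2 fold change of 0.30 (SE 0.72) that was -0.27 without *Trf1*+/+ replicate 1. *Uchl5*, which sits on the proteasome and has been tied to Tgf-β signaling, had 2377, 732 and 132 against 490, 1067 and 443, with a log2 fold change of 0.00 (SE 0.96). Its 3 *Trf1*+/+ values spanned more than those of *Trf1*flox/flox, and the sign turned in edgeR and DESeq2 (-0.61 and -0.67).

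The lists by function were chosen with earlier results of these data known and are not complete, so their counts hold for the listed genes only. Of the 9 tested deubiquitinases listed for the DNA damage response, 8 had a log2 fold change below 0, and the median of the 9 was -0.60. The 8 are named next. They were *Usp1*, *Usp3*, *Usp7*, *Usp16*, *Usp28*, *Usp47*, *Usp48* and *Otub2*, and *Otub1* was higher. *Usp28* had 35.6, 4.14 and 57.2 normalized counts in the *Trf1*+/+ group against 263, 1.09 and 2.76 in the *Trf1*flox/flox group. Its log2 fold change was -0.80 in limma, but 1.48 in edgeR and 1.47 in DESeq2, and the mean was higher in the *Trf1*flox/flox group. In *Usp1* the groups did not overlap. *Usp7*, which stabilizes MDM2 and p53, had 588, 366 and 254 normalized counts against 225, 139 and 357, a log2 fold change of -0.76 (SE 0.90). *Usp48* had 1319, 302 and 384 against 1055, 19.7 and 189, a log2 fold change of -1.74 (SE 1.33). The count was 8 of 9 lower under upper quartile scaling too, 7 of 9 in edgeR and 6 of 8 without *Trf1*+/+ replicate 1, and it was 5 of 8 without *Trf1*flox/flox replicate 1. Of the 5 tested deubiquitinases of Tgf-β signaling, *Usp4*, *Usp9x*, *Usp15*, *Otub1* and *Uchl5*, all had a log2 fold change above 0, with a median of 0.88 and 4 of 5 above the median of all genes. Without *Trf1*+/+ replicate 3 the count above 0 was 3 of 5. *Uchl5* was at 0.00, and *Usp15*, with 2.67, 639 and 277 against 1129, 115 and 325, went from 2.01 to -0.27 without *Trf1*+/+ replicate 1. *Usp9x* had 1366, 595 and 317 against 731, 1622 and 614. Among all tested genes 55.9% were higher, and none of these genes passed the adjusted test.

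**Figure D5:**
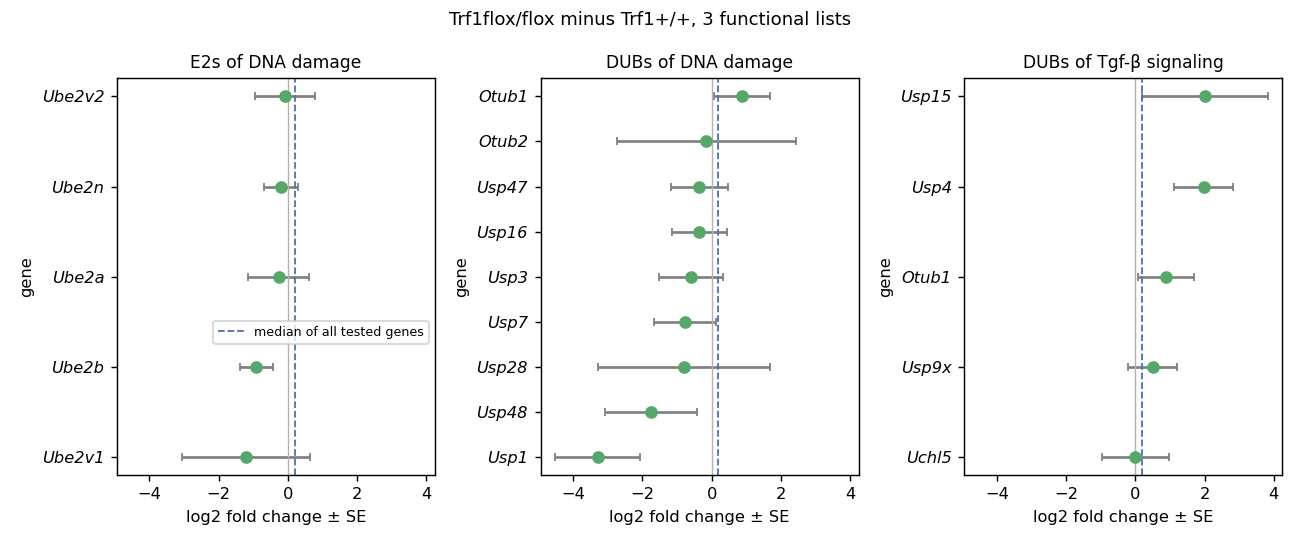
Points give the log2 fold change (x axis, *Trf1*flox/flox minus *Trf1*+/+) with its standard error from limma for the tested genes (y axis) of 3 lists, E2 enzymes of DNA damage, deubiquitinases (DUBs) of DNA damage and deubiquitinases of Tgf-β signaling. The dashed line is the median of all tested genes, 0.20. In the first 2 lists 5 of 5 and 8 of 9 genes lie below 0, and in the last 5 of 5 lie above it, *Uchl5* by less than 0.01.

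The other genes of the pathway, from E1 enzymes and ubiquitin genes to cullin partners, the COP9 signalosome and further deubiquitinase families, numbered 75, of which 69 were tested. Of these, 38 were higher and 31 lower, with a median log2 fold change of 0.14, and none passed the adjusted test. The groups did not overlap in 5 of them (7.25%), against 8.68% of all tested genes. *Cul3*, the scaffold of the BTB ligases such as the KEAP1 ligase, had 2928, 1128 and 619 normalized counts in the *Trf1*+/+ group against 421, 74.3 and 329 in the *Trf1*flox/flox group, a log2 fold change of -2.54 (SE 0.88). *Dcun1d4*, which helps attach NEDD8 to cullins, had 1.78, 23.2 and 123 against 131, 1023 and 393, a log2 fold change of 4.21 (SE 1.92). The deubiquitinase *Vcpip1* had 0.891, 36.5 and 0.985 against 284, 1083 and 145, *Senp1*, a SUMO protease, had 11.6, 17.4 and 21.7 against 189, 38.2 and 131, and *Psmd14*, the deubiquitinase of the proteasome lid, had 683, 951 and 751 against 1060.3, 1173 and 1107.

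Genes at the centre of the system had differences smaller than their standard errors. The polyubiquitin gene *Ubb* had 14109, 9028 and 6987 normalized counts in the *Trf1*+/+ group against 6626, 8368 and 8756 in the *Trf1*flox/flox group, a log2 fold change of -0.29 (SE 0.40). *Uba1*, the main E1 of ubiquitin, had a log2 fold change of 0.06 (SE 0.93), *Rbx1*, the RING partner of most cullins, -0.04 (SE 0.47), and *Nedd8* 0.42 (SE 0.50). Of the 10 COP9 signalosome genes, whose complex takes NEDD8 off cullins, 3 were higher and 7 lower, and all overlapped between the groups.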

How the data were processed

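The authors trimmed reads with bbduk, aligned them with TopHat (2.0.10) to GRCm38 and counted them with HTSeq-count (0.6.1) on GENCODE vM20; the submitters' notes list DESeq2 and the build GRCm39, and here the methods were followed. The library kit does not mark strand, so overlapping and antisense genes cannot be told apart. The deposited values (unit: signal) are reads divided by 1 size factor per library; whole reads were recovered for 100% of values above 0 (tolerance 0.001 of a read). Reads summed over the listed genes were 10263382 to 12248797 per library, and the full sequencing depth is not known from these values.

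Genes that reached 10 normalized counts in 3 libraries or more were tested with limma (3.58.1, R 4.3.3) on log2(value + 1), *Trf1*flox/flox minus *Trf1*+/+, with Benjamini-Hochberg adjustment over 9966 genes. Fold changes are on this log2(value + 1) scale, which understates differences between low values, while a single library near 0 can weigh heavily in them. P-values set the group difference against the spread between libraries, which holds the sorting and amplification as well as the mice. In limma the variance of a gene is drawn towards a trend over all genes. The SE of a gene with close values, such as *Ube2b* or *Ube2z*, is therefore wider than its own spread would give. edgeR (4.0.16, quasi-likelihood, TMM) and DESeq2 (1.42.0) on recovered reads, pseudocounts of 0.5 and 5, no filter, upper quartile scaling and leaving out each library were alternatives. The code of the fits was run on simulated counts with a preset dispersion that was not estimated from these data. That run checks the code and not how the fits perform on these libraries. Members were named if their groups did not overlap, if they were among the 10 smallest limma p-values, or if they had the highest or lowest log2 fold change or highest mean of their class. Members, gene lists and motifs were chosen with earlier results of these data known. Positions, exon lengths and shared 50-base stretches came from GENCODE vM21 (GRCm38). The values of 1 member are not reported here.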

Additional observations from a re-analysis of the deposited data

How the results depend on the processing

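Besides leaving out each library, the settings were pseudocounts of 0.5 and 5, no filter, upper quartile scaling, edgeR, DESeq2 and, added after seeing the data, DESeq2 without *Trf1*+/+ replicate 1. No member passed an adjusted p of 0.05 in any of them or without any library, and the smallest adjusted p of a named member was 0.107. Of the 22 named members, 17 kept their sign in every setting that gave a value. Among the 22 were the 11 whose groups did not overlap. Their sign could not turn with a library left out or another pseudocount. *Usp28* and *Otud4*, outside the 22, turned sign in edgeR and DESeq2. *Ube2l6* fell under the filter without *Trf1*+/+ replicates 1 and 2 and *Trf1*flox/flox replicate 3, and in DESeq2 without *Trf1*+/+ replicate 1.

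Members with groups that did not overlap numbered 11, between 15 and 21 without each library in turn, and 17 in DESeq2 without *Trf1*+/+ replicate 1; fewer samples leave fewer values to overlap, and the share among all genes was then 14.6% to 25.5%. E2 enzymes that were higher numbered 17 under upper quartile scaling. UCH genes that were higher numbered 1 instead of 2 with a pseudocount of 5, in edgeR, in DESeq2 and in DESeq2 without *Trf1*+/+ replicate 1, and 1 to 2 without each library. The sign turned for *Cul1* (-0.29 without *Trf1*+/+ replicate 2, and -0.29 to 0.82 over the libraries left out), *Cul2* (-0.14 in edgeR, -0.10 in DESeq2, -0.71 without *Trf1*+/+ replicate 1 in limma and in DESeq2, and -0.71 to 3.16), *Otub2* (0.27, 1.43 and 1.78 without *Trf1*+/+ replicates 2 and 3 and *Trf1*flox/flox replicate 2, and -2.15 to 1.78), *Uchl3* (-0.27 without *Trf1*+/+ replicate 1 in limma and in DESeq2, and -0.27 to 0.63) and *Uchl5* (-0.0064 with a pseudocount of 5, -0.61 in edgeR, -0.67 in DESeq2, -1.10 without *Trf1*+/+ replicate 3 and -0.40 without *Trf1*flox/flox replicate 2, and -1.10 to 0.98). The cause was not tested. No paired analysis was possible because the labels carry no replicate numbers, and the numbers 1 to 3 used here follow sample order and pair no mice.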
